A study of Mus musculus with 6 samples.

Results

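The genes described here are the CCN family members Ccn1, Ccn2, Ccn3, Ccn4 and Ccn5, the angiomotins Amot, Amotl1 and Amotl2, the transcriptional coactivator gene Yap1 and its target Ankrd1. These 10 genes, of 21898 in the deposited table of read counts, were taken by their names. The set was put together because Ccn1, Ccn2 and Amotl2 were lower with NAPQI in these same libraries, so the difference between the groups is given below as a description of the members and is not tested. RNA was sequenced from whole ovaries of wild-type fetal mice, explanted at 14.5 days post coitum and cultured without serum for 3 days. The medium of the treated group held NAPQI (N-acetyl-p-benzoquinone imine), the reactive metabolite of acetaminophen, at 15 µM, and that of the control group the same volume of ethyl acetate. Each group had 3 libraries, and no source used here says whether these came from separate litters or cultures, so each p-value reflects how far the 3 libraries of a group lay apart, and that spread may be technical.

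CCN proteins are secreted, cysteine-rich proteins of the extracellular matrix that bind integrins and heparan sulfate proteoglycans. Ccn1, Ccn2, Ankrd1 and Amotl2 are widely used as readouts of the Hippo pathway. In that pathway the LATS kinases phosphorylate the coactivators YAP and TAZ, which keeps these out of the nucleus. When LATS activity is low, as on actin polymerisation and tension, YAP and TAZ enter the nucleus, bind TEAD factors and raise transcription of such targets. Angiomotins are scaffold proteins of cell junctions and actin fibres that bind YAP and hold it in the cytoplasm, so AMOTL2, itself a target, feeds back on the pathway. In the ovary the pathway is known for restraining follicle growth, and CCN2 is among the factors raised when it is disrupted there.

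The bases before the start of transcription are shown for 4 members, because TEAD sites in such promoters are the textbook link from YAP to its targets. RefSeq promoters on the GRCm38.p6 build were matched for 6 of the 10 members, Ccn1, Ankrd1, Amot, Amotl1, Amotl2 and Yap1. The counts themselves were made on GRCm39, so the coordinates of promoters and genes must not be mixed. Each sequence is the 250 bases before the start, 5′ to 3′ on the gene's strand, with capitals for matches on either strand to the TEAD core GGAATG, the CRE core TGACG or the TATA box TATAAA. The Ccn1 promoter lies at chr3:145649986-145650235 on the minus strand, that of Amotl2 at chr9:102717554-102717803 on the plus strand, that of Ankrd1 at chr19:36119845-36120094 on the minus strand and that of Yap1 at chr9:8004597-8004846 on the minus strand.
Ccn1: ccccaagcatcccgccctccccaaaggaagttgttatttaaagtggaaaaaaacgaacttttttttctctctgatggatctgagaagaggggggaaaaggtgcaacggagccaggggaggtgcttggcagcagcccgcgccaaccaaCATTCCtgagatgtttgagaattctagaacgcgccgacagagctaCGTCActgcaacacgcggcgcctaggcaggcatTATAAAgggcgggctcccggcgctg
Amotl2: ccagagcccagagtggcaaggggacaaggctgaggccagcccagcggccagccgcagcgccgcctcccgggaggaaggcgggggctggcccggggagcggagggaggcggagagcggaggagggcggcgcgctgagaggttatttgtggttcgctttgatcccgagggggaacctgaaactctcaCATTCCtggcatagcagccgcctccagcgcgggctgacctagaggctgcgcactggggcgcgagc
Ankrd1: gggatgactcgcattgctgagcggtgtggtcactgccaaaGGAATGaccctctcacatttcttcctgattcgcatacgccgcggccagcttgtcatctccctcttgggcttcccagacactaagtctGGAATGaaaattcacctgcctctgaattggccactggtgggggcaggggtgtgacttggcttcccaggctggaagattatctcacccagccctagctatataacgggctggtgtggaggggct
Yap1: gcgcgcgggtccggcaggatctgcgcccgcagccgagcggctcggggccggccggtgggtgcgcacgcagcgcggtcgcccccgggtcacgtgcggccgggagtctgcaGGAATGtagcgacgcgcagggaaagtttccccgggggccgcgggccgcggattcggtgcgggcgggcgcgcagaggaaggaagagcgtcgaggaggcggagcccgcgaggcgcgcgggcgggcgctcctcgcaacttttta

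Ccn1 had 1 TEAD core, from 103 to 98 bases before the start, and Amotl2 had 1, from 65 to 60 bases before it; in both it reads CATTCC on the gene's strand. Ankrd1 had a TEAD core at 210 to 205 bases and another at 123 to 118 bases before its start, and Yap1 had 1 at 141 to 136 bases before its start. In all, 4 of the 6 matched members held the TEAD core, against 12.6% of 32851 promoters in the RefSeq table. Amot and Amotl1 had none in this window. Ccn1 alone of the 6 had the TATA box letters TATAAA (12.4% of all promoters), at 25 to 20 bases before the start. Variants of the TATA box were not searched for, such as the tatataa near the end of the Ankrd1 sequence. Ccn1 also had a CRE core, as had Amotl1 (17.8% of all promoters). No match was found in any of the 6 to the AP-1 site TGANTCA (6.75% of all promoters) or to the CArG box of serum response factor (1.47%). These are matches of letters, and whether a factor occupied them was not measured here.

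The members spanned more than 3 orders of level in control ovaries. Levels between genes are compared as FPKM, the authors' read count divided by gene length and by all counted reads of the library. Ccn1 was by far the most abundant member, at 136 ± 57.9 FPKM (mean ± SD, n = 3 control libraries here and below). Yap1 followed at 22.7 ± 0.232 FPKM, Ccn2 at 13.4 ± 6.75, Amotl2 at 12.2 ± 2.73, Amotl1 at 11.4 ± 1.13 and Amot at 8.25 ± 0.950 FPKM. Ccn4, a CCN member induced by Wnt signalling, stood at 3.23 ± 0.853 FPKM. The remaining 3 were near the limit of detection, Ccn5 at 0.164, Ccn3 at 0.128 and Ankrd1 at 0.0703 FPKM. The lowest control library of Ccn1 (71.8 FPKM) lay above every library of Yap1, whose lowest (22.4) lay above every library of Ccn2 (7.31 to 20.7). Ccn2 was not separated from Amotl2, Amotl1 or Amot, since its libraries covered theirs, and Amotl2 (10.3 to 15.3) was not separated from Amotl1 (10.3 to 12.5). Amot (7.61 to 9.34) lay below both other angiomotins, and Ccn4 (2.36 to 4.06) below Amot. The libraries of Ccn3, Ccn5 and Ankrd1 overlapped.

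Ccn1 and Ccn2 were also the most variable of the abundant members among control libraries. The values below are CPM, read counts divided by library size after TMM, a normalisation that sets libraries to a common level over most genes. The highest control library was 2.58 times the lowest for Ccn1 and 2.84 times for Ccn2. It was 1.495 times the lowest for Amotl2, 1.198 times for Amot, 1.195 times for Amotl1 and 1.01 times for Yap1. Depth was 13879347 to 17258609 counts per library, so 1 count was worth 0.0582 to 0.0739 CPM, and the counts behind Ccn1 (1005 or more) and Ccn2 (202 or more) leave little of that spread to counting error. Control replicate 3 had the fewest counts and the largest share of globin reads (0.0188% against 0.00176% to 0.00602%).

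Among the CCN ligands, Ccn1 was lower with NAPQI in every library. Ccn1 encodes a matrix protein, formerly CYR61, that promotes adhesion and migration. It stood at 145, 374 and 313 CPM in control replicates 1, 2 and 3 and at 87.5, 107 and 69.4 CPM in NAPQI replicates 1, 2 and 3. The groups did not overlap, but control replicate 1 lay much closer to the NAPQI libraries than to the other controls. The log2 fold change was -1.66 ± 0.27 (SE), or 0.317 of the control level.

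Ccn2, formerly CTGF, encodes a matrix protein that acts with TGF-beta in fibrosis. It stood at 20.9, 59.4 and 36.0 CPM in the controls and at 21.5, 12.8 and 20.0 CPM with NAPQI, with a log2 fold change of -1.10 ± 0.30 (SE). The groups overlapped, since control replicate 1 lay below NAPQI replicate 1. Without control replicate 2, the highest control, the log2 fold change was -0.64, and it was -1.39 without control replicate 1. So the size of the Ccn2 difference rested on control replicate 2.

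Ccn4 stood at 18.3, 22.7 and 13.4 CPM in the controls and at 18.6, 15.1 and 19.1 CPM with NAPQI. The control libraries enclosed all 3 NAPQI libraries (log2 fold change -0.049 ± 0.19). Its sign changed with the library omitted: it was -0.22 without control replicate 3 and 0.15 without control replicate 2.

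Ccn3, which is expressed in muscle and nervous tissue and restrains proliferation, had 1, 13 and 4 counts in the controls and 4, 8 and 4 with NAPQI. Ccn5, a CCN protein that lacks the C-terminal domain of the others, had 11, 4 and 1 counts in the controls and 8, 3 and 5 with NAPQI. For both genes the groups overlapped and the counts were too few to show any but a very large difference.

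**Figure D1:**
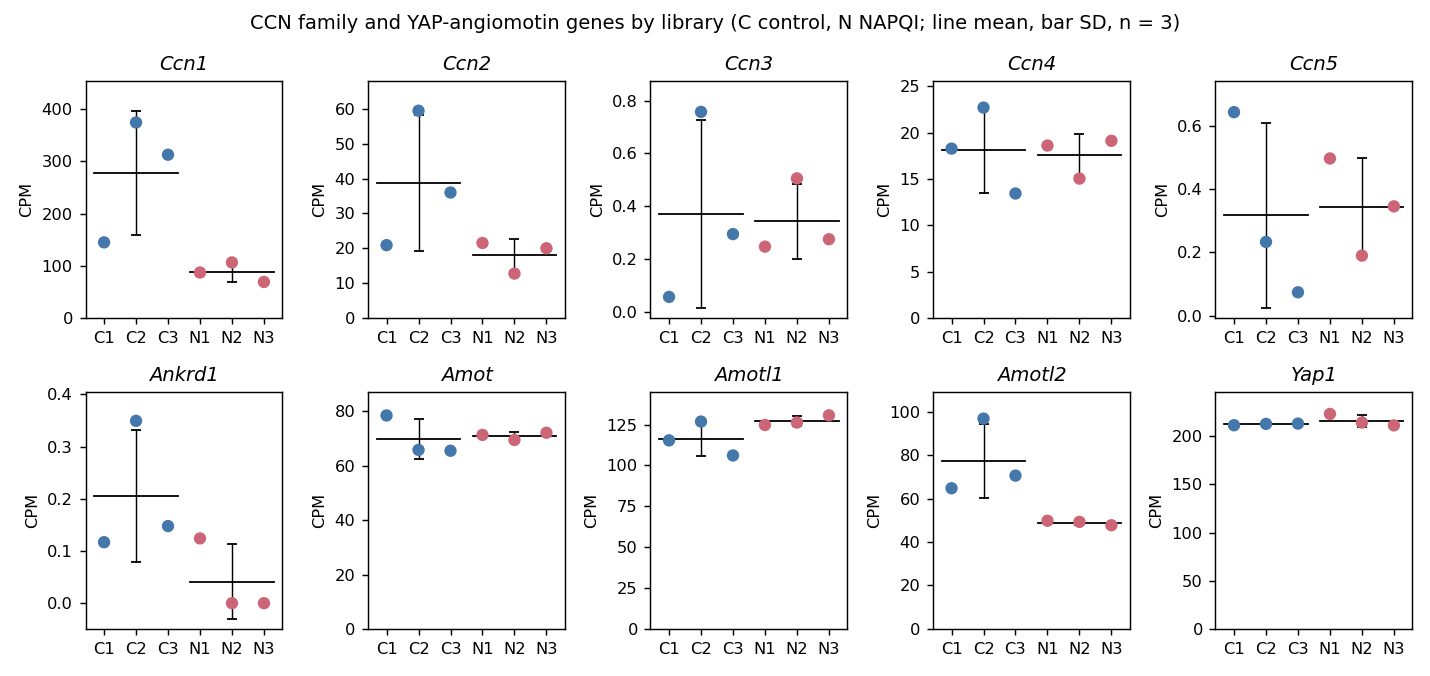
CPM of the 10 members in control replicates 1 to 3 (C1 to C3) and NAPQI replicates 1 to 3 (N1 to N3), with a line at the mean and a bar of 1 SD (n = 3), each gene on its own linear axis. All NAPQI points lie below all control points for Ccn1 and Amotl2, while Yap1 is level across the 6 libraries.

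Ankrd1, the cardiac ankyrin repeat gene that is a strong YAP target in many cultured cells, was barely expressed. It had 2, 6 and 2 counts in the controls and 2, 0 and 0 with NAPQI. A count of 0 allows up to 0.190 CPM in NAPQI replicate 2 and 0.207 CPM in NAPQI replicate 3. These limits cover counting error only. They lie above the 0.117 and 0.148 CPM of control replicates 1 and 3, and below the 0.349 CPM of control replicate 2. No fold change of the fit is therefore given, and whether the groups differ cannot be told at this depth. In the authors' deposited comparison the mean was 3.19 in control and 0.644 in NAPQI libraries, a ratio of 0.202.

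Of the angiomotins, Amotl2 alone differed between the groups in every library. Amotl2, which links junctional cadherins to actin, stood at 64.7, 96.8 and 70.6 CPM in the controls. With NAPQI it stood at 49.8, 49.3 and 47.7 CPM. The 3 NAPQI libraries were within 1.04 times of each other, and all lay below the lowest control. The log2 fold change was -0.66 ± 0.13 (SE), or 0.632 of the control level.

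Amot, the founding member, which was found as a receptor-like protein for angiostatin, stood at 78.5, 65.9 and 65.5 CPM in the controls and at 71.4, 69.5 and 72.2 CPM with NAPQI, inside the control range (log2 fold change 0.021 ± 0.099). Its sign too changed with the library omitted: it was -0.023 without control replicate 3 and 0.12 without control replicate 1. Amotl1, a junctional angiomotin, stood at 115, 127 and 106 CPM in the controls and at 125, 126 and 131 CPM with NAPQI (log2 fold change 0.13 ± 0.091), with overlapping groups. The shares of Amotl2 and Amotl1 in the family did not overlap between the groups. Amotl2 was chosen because it was lower with NAPQI, so its smaller share follows from that choice. The shares add up to the whole family, so the share of Amotl1 is no separate result. Of the summed FPKM of the 3 genes, Amotl2 held 33.1%, 43.0% and 38.0% in the controls and 27.5%, 27.3% and 26.0% with NAPQI. Amotl1 held 36.8%, 35.2% and 35.7% in the controls and 43.0%, 43.8% and 44.5% with NAPQI, while the summed FPKM of 28.8 to 35.7 in the controls enclosed that of 28.9 to 29.6 with NAPQI.

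The transcript of YAP itself was level. Yap1 stood at 211, 213 and 213 CPM in the controls and at 223, 214 and 211 CPM with NAPQI, with a log2 fold change of 0.025 ± 0.083. It was the least variable member among controls, and RNA levels say nothing of the phosphorylation or location of the protein.

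Of the 10 members, 7 had enough counts to enter the test across 14736 genes, and Ccn3, Ccn5 and Ankrd1 did not. Among all tested genes 0.00679% were called lower with NAPQI by the quasi-likelihood test of edgeR at an adjusted p under 0.05, and 0.0746% were called higher. Of the 7 members Ccn1 was called lower and 0 were called higher. The libraries did not overlap for 14.4% of all tested genes, 7.13% with NAPQI lower and 7.26% with NAPQI higher. Among the 7 members this held for 2 with NAPQI lower (Ccn1 and Amotl2) and 0 with NAPQI higher. DESeq2 called 2 of the 7 (Ccn1 and Amotl2), both lower. Of the genes for which it gave an adjusted p, 0.196% were called lower and 0.559% in either direction. In the comparison table that the authors deposited, an adjusted p under 0.05 was given to 0 of the 10 members, against 0.124% of 18591 genes, and in the authors' deposited table the ratios of NAPQI to control were 0.318 for Ccn1, 0.469 for Ccn2 and 0.634 for Amotl2. These counts come from the contrast that chose the members, and nothing is read from them. When control replicate 3 was omitted, edgeR did not call Ccn1, nor did it when NAPQI replicate 1 or replicate 3 was; 1 gene in all was called in each of these fits. In whole ovaries, fewer cells of a type and less RNA per cell cannot be told apart.

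**Figure D2:**
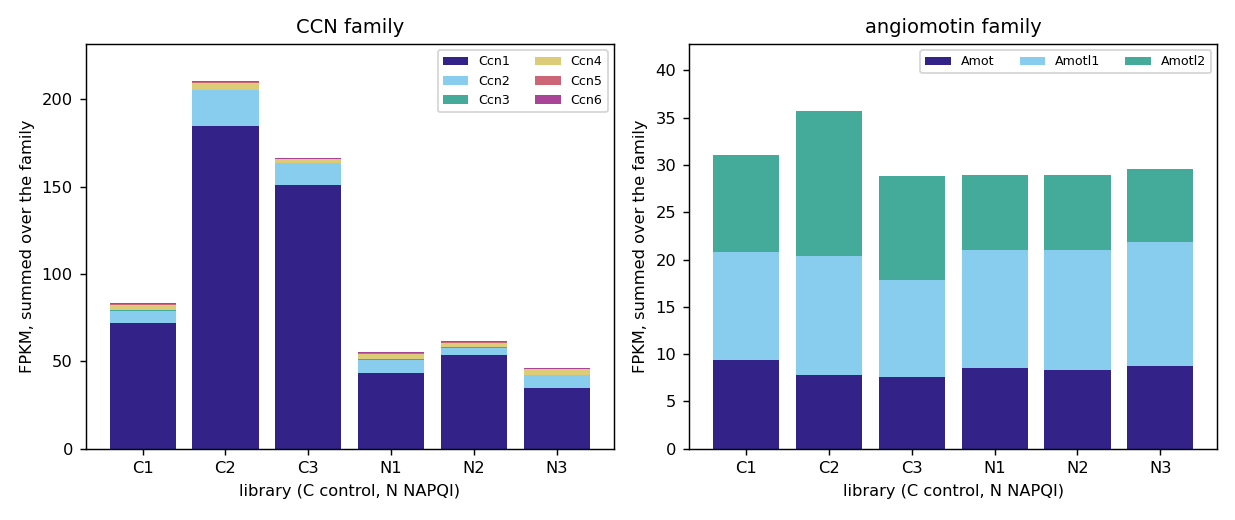
FPKM of the CCN genes (left, Ccn1 to Ccn6) and the angiomotins (right), stacked by library, for 3 control (C1 to C3) and 3 NAPQI (N1 to N3) libraries. Ccn1 makes up most of the CCN total in every library, and the part of Amotl2 (top) is smaller in each NAPQI library than in each control.

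Within the CCN family, Ccn1 held 85.9%, 87.7% and 90.8% of the FPKM summed over Ccn1 to Ccn6 in the controls, and 78.7%, 86.8% and 75.3% with NAPQI. The family total was 83.6, 211 and 166 FPKM in the controls and 55.3, 61.5 and 46.3 FPKM with NAPQI. The difference of the total was thus mostly that of Ccn1. The share of Ccn2 overlapped between the groups, at 7.37% to 9.81% in the controls and 7.34% to 15.3% with NAPQI.

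Control replicate 2 was the highest library for Ccn1, Ccn2 and Amotl2, and markers of the ovarian surface epithelium were also highest there. The 8 listed epithelial markers (among them Upk3b, Krt19 and Krt7, a uroplakin and keratins of the mesothelial covering) summed to 150, 527 and 232 CPM in the controls and to 309, 209 and 377 CPM with NAPQI. None of the 8 was called, and none was at 0 in all libraries. Within the controls, Ccn1, Ccn2 and Amotl2 stood in the order of the epithelial sum, lowest in replicate 1 and highest in replicate 2. Across the groups the libraries stood in another order for Ccn1 than for that sum. NAPQI replicate 3 had the second-highest sum and the lowest Ccn1. Control replicate 1 had the lowest sum and more Ccn1 than any NAPQI library. Amotl2 likewise was higher in control replicate 1 and lowest in NAPQI replicate 3. For Ccn2 some libraries went with the sum: control replicate 1 (20.9 CPM) lay below NAPQI replicate 1 (21.5 CPM), and NAPQI replicate 2, with the lowest sum of the NAPQI libraries, had the lowest Ccn2 (12.8 CPM). Others did not. Control replicate 3 had more Ccn2 (36.0 CPM) than NAPQI replicates 1 and 3, whose sums were higher. NAPQI replicate 3 (20.0 CPM) lay below control replicate 1, which had the lowest sum. The part of the surface epithelium in the differences of Ccn1, Ccn2 and Amotl2 was not tested. The summed levels of the other marker lists also overlapped between the groups. Stromal markers summed to 3606 to 4101 CPM in the controls and 2623 to 3739 CPM with NAPQI, smooth muscle and pericyte markers to 300 to 346 and 320 to 393 CPM, and endothelial markers to 145 to 207 and 159 to 194 CPM. Macrophage markers summed to 83.1 to 117 and 73.8 to 86.9 CPM, erythroid markers to 26.8 to 197 and 18.2 to 62.9 CPM, and markers of mesonephros and rete to 24.0 to 29.7 and 16.8 to 25.6 CPM. Pregranulosa markers (1954 to 2409 and 1931 to 2140 CPM) and germ cell markers (1414 to 1653 and 1403 to 1786 CPM) were abundant in every library. Within the lists, 7 of 8 macrophage markers (median log2 fold change -0.30), all 4 tested erythroid markers (-1.12) and 4 of 5 tested markers of mesonephros and rete (-0.27) lay below 0. So did 6 of 7 stromal markers (-0.27), and 5 of 8 each for surface epithelium, endothelium and pregranulosa. Above 0 lay 6 of 7 tested germ cell markers (0.074) and 6 of 8 of smooth muscle and pericytes (0.095). The erythroid sum was 197 CPM in control replicate 3, against 31.5 and 26.8 CPM in control replicates 1 and 2. It was 62.9, 33.7 and 18.2 CPM with NAPQI. The groups did not overlap for 3 markers, named after their values were seen: Myh11, a smooth muscle myosin, at 38.2 to 70.6 CPM in the controls and 91.4 to 94.5 CPM with NAPQI, Wnt4 (171 to 193 and 215 to 223 CPM) and the complement gene C1qc (14.44 to 22.6 and 11.4 to 14.42 CPM). Among all tested genes, 14.4% did not overlap between the groups, and nothing is read from these 3 markers. No marker was called in any list, and 1 of all markers, Hba-a2, was at 0 in every library.

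The other genes of the pathway were then compared between the groups in the fit across all genes, of which edgeR called 0.0814% at an adjusted p under 0.05 in either direction. Hippo kinases and their upstream regulators held no called gene. Of the 21 listed, all tested, 1 had a higher and 2 a lower value at an unadjusted p under 0.05, against 4.21% and 5.03% of all tested genes. The median log2 fold change was 0.10, against -0.011 for all tested genes. It ranged from 0.018 to 0.14 over the processing settings, and was lowest without control replicate 3. Dchs1, an atypical cadherin upstream of the kinases, averaged 122 ± 25.7 CPM in control and 94.8 ± 6.14 CPM in NAPQI libraries (log2 fold change -0.36 ± 0.13, edgeR adjusted p = 0.434). Mob1a, an activator of LATS, averaged 105 ± 9.97 CPM in control and 127 ± 11.9 CPM in NAPQI libraries (log2 fold change 0.27 ± 0.10, edgeR adjusted p = 0.444). These had the smallest p of the list, and Map4k4, a kinase that can phosphorylate LATS and the most abundant, averaged 588 ± 27.3 CPM in control and 586 ± 8.94 CPM in NAPQI libraries (edgeR adjusted p = 0.991).

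The YAP partners comprise TAZ (Wwtr1), the TEAD factors and the vestigial-like cofactors. Of 9 listed genes 7 were tested and 0 were called. Vgll3, a cofactor that competes with YAP for TEAD, stood at 1.64, 4.08 and 2.59 CPM in the controls and at 0.869, 1.075 and 0.829 CPM with NAPQI. The groups did not overlap, at a low level in all libraries (log2 fold change -1.57 ± 0.43, edgeR adjusted p = 0.304). Tead4, a TEAD factor, stood at 2.34, 4.08 and 3.03 CPM in the controls and at 2.11, 2.28 and 2.14 CPM with NAPQI, also without overlap (log2 fold change -0.53 ± 0.33, edgeR adjusted p = 0.625). These were the 2 of the 7 without overlap and with NAPQI lower, against 7.13% of all tested genes. Tead2, the most abundant partner, averaged 214 ± 21.2 CPM in control and 184 ± 18.3 CPM in NAPQI libraries with overlapping groups (log2 fold change -0.22 ± 0.10, edgeR adjusted p = 0.549). The median of the 7 was -0.021, and its sign depended on the processing (-0.11 to 0.011).

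Angiomotin partners are junctional scaffolds and ubiquitin ligases that bind these proteins. None of the 16 tested was called, and 0 had an unadjusted p under 0.05, against 9.24% of all tested genes. The median log2 fold change was 0.099. Itch, a ubiquitin ligase, averaged 112 ± 16.9 CPM in control and 131 ± 2.58 CPM in NAPQI libraries (log2 fold change 0.22 ± 0.11, edgeR adjusted p = 0.549). Magi1, a scaffold of tight junctions, averaged 177 ± 8.21 CPM in control and 158 ± 16.0 CPM in NAPQI libraries (log2 fold change -0.17 ± 0.10, edgeR adjusted p = 0.605). Nedd4, a ubiquitin ligase and the most abundant of the list, averaged 1226 ± 156 CPM in control and 1380.0 ± 26.3 CPM in NAPQI libraries (edgeR adjusted p = 0.624).

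Of the CCN receptors, 10 of 11 listed were tested and 0 were called. The integrin subunit Itgb3 averaged 10.2 ± 1.22 CPM in control and 14.8 ± 0.583 CPM in NAPQI libraries, with no overlap (log2 fold change 0.54 ± 0.16, edgeR adjusted p = 0.357). Sdc4, a heparan sulfate proteoglycan, averaged 267 ± 25.3 CPM in control and 224 ± 30.9 CPM in NAPQI libraries (log2 fold change -0.25 ± 0.11, edgeR adjusted p = 0.526). Itga6, the laminin-binding integrin subunit and the most abundant, averaged 632 ± 128 CPM in control and 734 ± 33.7 CPM in NAPQI libraries (edgeR adjusted p = 0.618). The median of the list was -0.084, and its sign depended on the processing (-0.17 to 0.020).

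**Figure D3:**
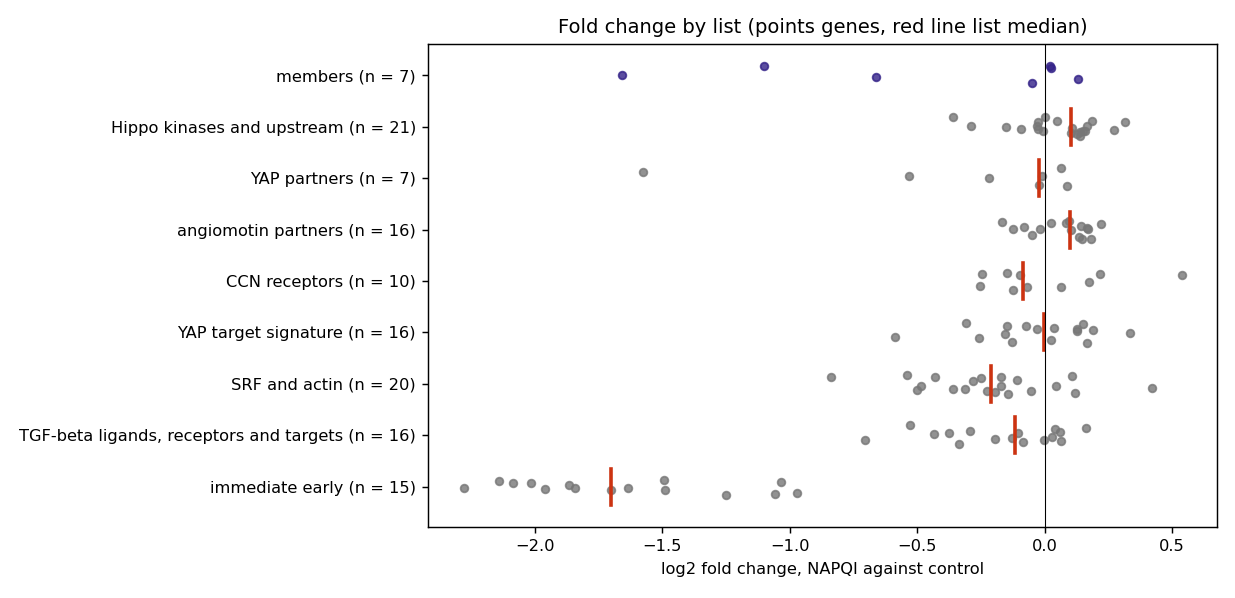
Log2 fold change of NAPQI against control for the 7 tested members (top, chosen on this contrast) and for each pathway list, 1 point per gene, with a red line at the list median. Ccn1, Ccn2 and Amotl2 lie at -1.66, -1.10 and -0.66, while the median of the YAP target signature is -0.003 and all immediate early genes lie at -0.97 or below.

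A signature of conserved YAP target genes was centred near 0. Without the members it has 18 genes, of which Lats2 and Ptpn14 also stand in the Hippo list and Tgfb2 in the TGF-beta list. Of the 16 tested, 0 were called and 0 had an unadjusted p under 0.05, against 9.24% of all tested genes. Their log2 fold changes were positive for 8 and negative for 8, and their median of -0.003 ranged from -0.032 to 0.039 over the processing settings. F3, tissue factor, averaged 17.9 ± 8.01 CPM in control and 11.9 ± 2.74 CPM in NAPQI libraries (log2 fold change -0.59 ± 0.30, edgeR adjusted p = 0.561). Dock5, an activator of Rac, averaged 21.0 ± 2.81 CPM in control and 26.5 ± 5.06 CPM in NAPQI libraries (log2 fold change 0.33 ± 0.16, edgeR adjusted p = 0.549). Axl, a receptor tyrosine kinase and the most abundant, averaged 411 ± 40.3 CPM in control and 391 ± 26.5 CPM in NAPQI libraries (edgeR adjusted p = 0.850). Whether Ccn1, Ccn2 and Amotl2 differ from this signature as a set was not tested.

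Ccn1 and Ccn2 are also targets of serum response factor (SRF), which acts with actin-regulated cofactors. Of 20 tested genes of SRF and actin, 16 lay below 0 in log2 fold change, and the median was -0.21, against -0.011 for all tested genes. By edgeR 0 were called. At an unadjusted p under 0.05, 5 had a lower and 1 a higher value, against 5.03% and 4.21% of all tested genes. For 5 the groups did not overlap with NAPQI lower, against 7.13% of all tested genes. Srf stood at 81.0, 82.7 and 96.5 CPM in the controls and at 57.8, 73.5 and 47.2 CPM with NAPQI (log2 fold change -0.54 ± 0.14, edgeR adjusted p = 0.278). Actb, cytoplasmic actin and the most abundant of the list, stood at 1418, 1683 and 1699 CPM in the controls and at 1256, 1299 and 1188 CPM with NAPQI (log2 fold change -0.36 ± 0.10, edgeR adjusted p = 0.306). For both genes every NAPQI library lay below every control. DESeq2 called 2 genes of the list, both lower, against 0.196% of the genes it tested. These were Actb (DESeq2 adjusted p = 0.0402) and Srf, which lay only just under the threshold (DESeq2 adjusted p = 0.049997).

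Ccn2 is a classical target of TGF-beta. Of 16 tested ligands, receptors and targets of TGF-beta, 11 lay below 0 in log2 fold change, and the median was -0.12. None was called. At an unadjusted p under 0.05, 5 had a lower and 0 a higher value, against 5.03% and 4.21% of all tested genes. The groups did not overlap with NAPQI lower for 2, against 7.13% of all tested genes. Tgfbi, a matrix protein induced by TGF-beta, averaged 192 ± 44.4 CPM in control and 133 ± 15.2 CPM in NAPQI libraries (log2 fold change -0.53 ± 0.15, edgeR adjusted p = 0.333), and was called lower when control replicate 2 was left out. Smad7, the inhibitory SMAD, averaged 47.9 ± 7.70 CPM in control and 35.4 ± 4.16 CPM in NAPQI libraries, without overlap (log2 fold change -0.44 ± 0.14, edgeR adjusted p = 0.372). Col1a1, a collagen and the most abundant, averaged 1251 ± 84.0 CPM in control and 991 ± 230.4 CPM in NAPQI libraries (edgeR adjusted p = 0.501). It also stands among the stromal markers, of which 6 of 7 lay below 0 (median -0.27), and their part in these values was not tested.

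Ccn1 is itself an immediate early gene in stimulated cells, so its profile is set beside that of the immediate early list, whose difference in these libraries was known when the members were chosen. All 15 tested genes of that list lay below 0 in log2 fold change, with a median of -1.70 against -0.011 for all tested genes. At an unadjusted p under 0.05, 14 had a lower value, against 5.03% of all tested genes. By edgeR 0 were called, and DESeq2 called 1, Ier3, a regulator of survival after stress. Dusp1, a phosphatase of MAP kinases, averaged 60.7 ± 10.1 CPM in control and 19.5 ± 14.3 CPM in NAPQI libraries (log2 fold change -1.63 ± 0.35, edgeR adjusted p = 0.181). Zfp36, a protein that destabilises mRNA, averaged 106 ± 34.6 CPM in control and 32.4 ± 27.3 CPM in NAPQI libraries (log2 fold change -1.70 ± 0.42, edgeR adjusted p = 0.277). Egr1, a zinc finger transcription factor and the most abundant, stood at 743, 736 and 986 CPM in the controls and at 84.2, 530.1 and 73.3 CPM with NAPQI. Fos, a subunit of AP-1, had 199 CPM in NAPQI replicate 2, against 9.25 and 11.3 CPM in NAPQI replicates 1 and 3, so that library was closest to the controls. There Ccn1 was the highest of the NAPQI libraries but below every control, Ccn2 was at its lowest of all 6 libraries, and Amotl2 lay between the other NAPQI libraries. When NAPQI replicate 2 was omitted, edgeR called 13 of the 15 lower, of 17 genes called lower among 15014 tested. These genes were high in that library, so the count follows in part from leaving it out, and nothing is read from it. Omitting any of the other 5 libraries left 0 or 1 of the list called. The log2 fold change without NAPQI replicate 2 was -1.82 for Ccn1, -0.89 for Ccn2 and -0.66 for Amotl2.

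**Figure D4:**
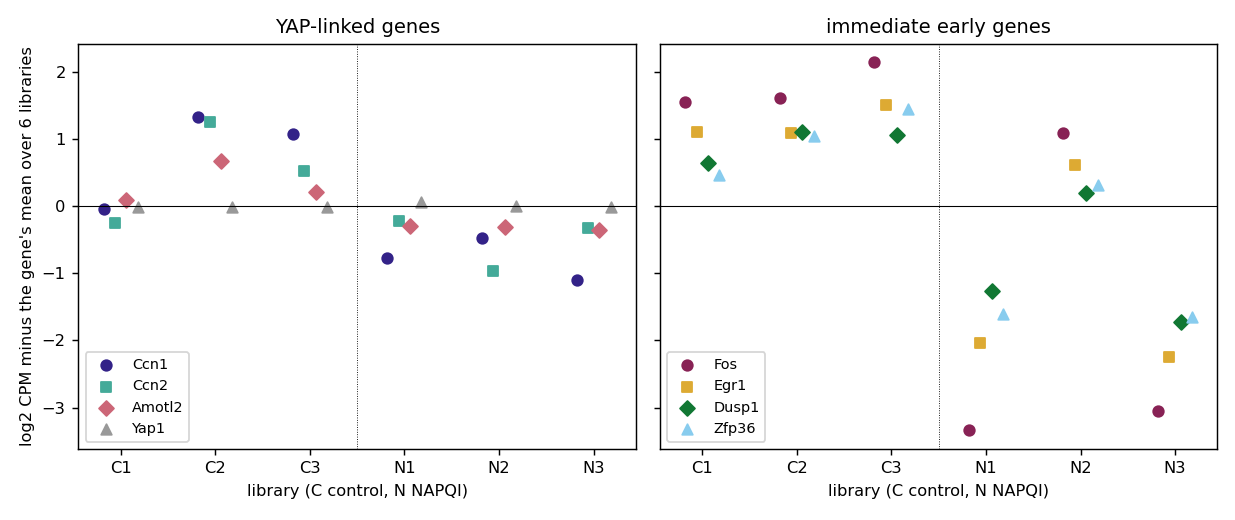
Log2 CPM minus the gene's mean over the 6 libraries, for Ccn1, Ccn2, Amotl2 and Yap1 (left) and for 4 immediate early genes (right), in control (C1 to C3) and NAPQI (N1 to N3) libraries. The immediate early genes are high in NAPQI replicate 2 (Fos 199 CPM), where Ccn2 is at its lowest, 12.8 CPM.

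Ccn1, Ccn2 and Amotl2 each had other genes nearer in profile than they were to each other, which is likely for any gene with 14087 candidates. Likeness was measured as the root mean square difference of log2 CPM, each gene centred on its own mean, over the 6 libraries, among 14087 genes with a mean of at least 1 CPM. The genes nearest to Ccn1 were Vgll3 (0.199), Npy2r (0.349), Dusp5 (0.361), Slc25a48 (0.403) and Jun (0.404). Those nearest to Ccn2 were Sostdc1 (0.218), Isg20 (0.236), Cracdl (0.239), Ltbp2 (0.243) and Tnfrsf12a (0.276). Those nearest to Amotl2 were Fndc1 (0.0735), Klc3 (0.112), Tead4 (0.114), Plekhd1 (0.131) and B3gnt5 (0.133). The same measure was 0.5004 between Ccn1 and Ccn2, 0.405 between Ccn2 and Amotl2 and 0.579 between Ccn1 and Amotl2. Yap1, Amot and Amotl1 lay within 0.128 of each other, as genes that vary little must. The 6 libraries stood in the same order for Vgll3 as for Ccn1, at a far lower level (0.829 to 4.08 CPM).

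In GRCm39 coordinates of the deposited table, the minus strand of chromosome 3 holds Ccn1 (ENSMUSG00000028195, 145352731 to 145355736). The plus strand of chromosome 10 holds Ccn2 (ENSMUSG00000019997, 24471340 to 24474581), and that of chromosome 9 holds Amotl2 (ENSMUSG00000032531, 102593871 to 102610617). Yap1 (7932000 to 8004597) and Amotl1 (14453262 to 14556352) lie on the minus strand of chromosome 9, and Amot on that of chromosome X from 144229421 to 144288177. Ccn3 (54609098 to 54617435) and Ccn4 (66763169 to 66795050) lie on the plus strand of chromosome 15, Ccn5 on that of chromosome 2 from 163662781 to 163675066 and Ankrd1 on the minus strand of chromosome 19 from 36089361 to 36097499. No member overlapped the span of another gene of the table. Of the genes of the pathway lists named with values, Dusp1 overlaps Ergic1 and Tead2 overlaps Cd37. Since no source used here says whether counting used the strand, their counts may include reads of the other gene. Overlaps of the markers, and of the nearest genes outside these lists, are not given here.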

How the data were processed

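RNA sequencing libraries of cultured fetal mouse ovaries, 3 control and 3 NAPQI, were grouped by their titles. Per the file headers, the authors deposited an unnormalised read count for each gene, with its FPKM and length. FastQC 0.11.8, HISAT2 2.0.5, HTSeq 0.9.1 and the build GRCm39 are named in the submitters' processing notes, and settings and strandedness are not given in the sources used here. The deposited FPKM values equal the count per kilobase of the listed length and per counted reads of the library within a relative difference of 1.49e-05. A second deposited table holds the authors' mean normalised signal, the ratio (fold change) of these means, its log2 value and the authors' p-values; its name points to DESeq. A single empty line (1) of the count table was skipped.

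The count test used edgeR 4.0.16 (R 4.3.3) with filterByExpr at a minimum count of 10, TMM scaling and the quasi-likelihood F-test, which is two-sided. P-values were adjusted by Benjamini-Hochberg over 14736 genes, with a threshold of 0.05. Each log2 fold change is given with its standard error, and errors of CPM and FPKM are SD over 3 libraries. A rank test of 3 against 3 libraries cannot give a two-sided p under 0.1. Log2 CPM used a prior count of 2. DESeq2 1.42.0 was an alternative. The members and gene lists were chosen with earlier results of these data known. The rule named all members, each list's called genes, its 2 genes with the smallest p and its most abundant gene, and the 5 nearest genes of Ccn1, Ccn2 and Amotl2; Tead4, Fos and Ier3 were added after their values were seen. All 187 list genes were in the table, 1 under an older symbol. Promoters were searched over 250 bases. Figures used matplotlib 3.10.9 under Python 3.11.15.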

Additional observations from a re-analysis of the deposited data

How the results depend on the processing

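The log2 fold changes of the 7 tested members moved by less than 1 SD between libraries under all 12 alternatives, and those of Ccn1, Ccn2, Amotl2, Amotl1 and Yap1 kept their sign. With 1 library left out, Ccn1 ranged from -1.96 to -1.37, Ccn2 from -1.39 to -0.64 and Amotl2 from -0.77 to -0.46. Ccn1 was called in 9 of 13 settings, Amotl2 in 2 (no low-count filter and DESeq2) and the other tested members in 0. The number of genes called, 12, was also 12 with DESeq2 size factors, upper quartile or library size alone. It was 48 without a low-count filter, 80 by DESeq2, and 1 to 58 with 1 library left out. With the replicate block it was 1, and Ccn1 was not in it. Libraries with the same number deviated together (correlation over 0.1) in 0 of 3 pairs. With 3 libraries a group, this cannot show whether the numbers pair them. Of the SRF and actin list DESeq2 called 2. Of the immediate early list 5 were called without a low-count filter, 1 by DESeq2, and 0 to 13 with 1 library left out, and of the TGF-beta list 0 to 1. The other 5 lists had 0 called in all 13 settings. The control level of Yap1, 22.7 FPKM, was 22.9 per kilobase of TMM-scaled libraries, more than its very small SD. The cause of these changes was not tested. Of the 5 nearest genes, 4 were shared for Ccn1 and 5 for Ccn2 and Amotl2 with a prior count of 0.5, and all with DESeq2 size factors. With 3 libraries a group, depth limits Ccn3, Ccn5 and Ankrd1, at 13 counts or fewer per library.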

Other observations

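Ccn6, the remaining gene of the CCN family, was expressed at a low level. It had 21, 22 and 11 counts in the controls and 12, 13 and 12 counts with NAPQI, or 1.23, 1.28 and 0.813 CPM and 0.745, 0.822 and 0.829 CPM. The groups overlapped (log2 fold change -0.48 ± 0.43), and its span overlaps Tube1 on the opposite strand.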
